A study of Mus musculus with 2 samples.

Results

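The channel genes described here set the electrical excitability of the muscle fibre membrane: the chloride channel gene Clcn1, the sodium channel gene Scn4a, the inward rectifier genes Kcnj2 and Kcnj12, the voltage-gated potassium channel genes Kcna7 and Kcnc4, and Kcnj11 and Abcc9, whose products join into ATP-sensitive potassium channels. They were chosen by name, and every transcript model that the deposited tables assign to them was taken: 8 genes of the 15521 annotated genes with reads, 149 models in all, of which 81 were in replicate 1 and 68 in replicate 2. Long-read RNA sequencing was done on a calf muscle, the gastrocnemius, which holds mainly fast fibres. It came from B6CASTF1/J females at 25 days of age, with 2 µg of total RNA per library. The strain is the hybrid offspring of C57BL/6J and CAST/EiJ mice, and the parental alleles were not separated here. The labels give 1 group of 2 biological replicates, with differently numbered animals and separate biosamples but the same donor record, so no contrast between conditions exists. Differences between the libraries hold animal, dissection and library preparation together.

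As background, an action potential runs along the fibre when voltage-gated sodium channels open, and delayed potassium channels then help the membrane to repolarize. Skeletal muscle is unusual in that chloride carries most of its resting conductance, and inherited loss of the chloride channel gives myotonia, a delayed relaxation after contraction. Inward rectifiers hold the resting potential, and ATP-sensitive channels open when the energy state of the fibre drops, each with a pore subunit and a sulfonylurea receptor.

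Replicate 1 held 1069771 reads from the mouse and replicate 2 held 1557594, after spike-in reads were left out. Levels are CPM, a gene's reads scaled to the same total of mouse reads in each library. The floor of 3 reads, which a count of 0 allows, equals 2.80 CPM in replicate 1 and 1.93 CPM in replicate 2. Ranges in parentheses after a value are 95% intervals (exact, Clopper-Pearson), and like the floor they hold counting error alone. All 8 skeletal fibre markers had reads. Acta1 (skeletal actin) had 73992 CPM in replicate 1 and 75267 CPM in replicate 2, and Myh4 (a fast myosin) had 16360 and 7963. By the test between libraries given below, 4 of the 8 were higher in replicate 2 and 4 lower (26.0% of all genes called). Of 6 cardiac markers, 5 were at 0 and Myh6 had 3 and 4 reads. The libraries differed in make-up, since all 8 slow-fibre markers were higher in replicate 2 and summed to 1056 CPM in replicate 1 and 8121 CPM in replicate 2. They also differed by transcript length: the median log2 ratio of replicate 2 over replicate 1 was 0.80 for genes whose most read complete model was 1000 bases or shorter and -0.66 for those over 6000 bases. Complete here means classed as annotated or as a new chain, whether or not the model spans the whole transcript. Reads without any splice junction made up 4.93% of the reads of annotated genes in replicate 1 and 10.3% in replicate 2. In a tissue library, fewer cells of a type and less RNA per cell cannot be told apart.

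All 8 channel genes were read in both libraries, and together they took 480 CPM (514 reads) in replicate 1 and 359 CPM (559 reads) in replicate 2. Kcnj2 stood lowest in both libraries, in CPM and in CPM per kilobase of transcript. Divided by the length of the most read complete model, mean levels were 34.3 ± 15.6 CPM per kilobase for Kcnc4 (SD, n = 2, here and below), 27.6 ± 13.3 for Kcnj11, 18.6 ± 10.1 for Kcnj12 and 15.8 ± 3.66 for Kcna7. Lower on the same scale were Scn4a at 8.29 ± 1.46 CPM per kilobase, Clcn1 at 7.07 ± 2.31, Abcc9 at 4.23 ± 2.48 and Kcnj2 at 0.928 ± 0.145. Neighbours in this order overlapped between libraries except at a pair of steps: both libraries of Kcna7 lay above both of Scn4a, and both of Abcc9 lay above both of Kcnj2. Among the upper 4 genes, both libraries of Kcnc4 lay above both of Kcna7, and every other pair overlapped. This order rests on the division by length. In CPM alone, both libraries of Scn4a (76.7 and 59.7) lay above both of Kcna7 (40.2 and 28.9). The length used for Kcna7, 2182 bases, leaves out the stretch past its annotated end, which the models of most of its reads reach.

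**Figure D1:**
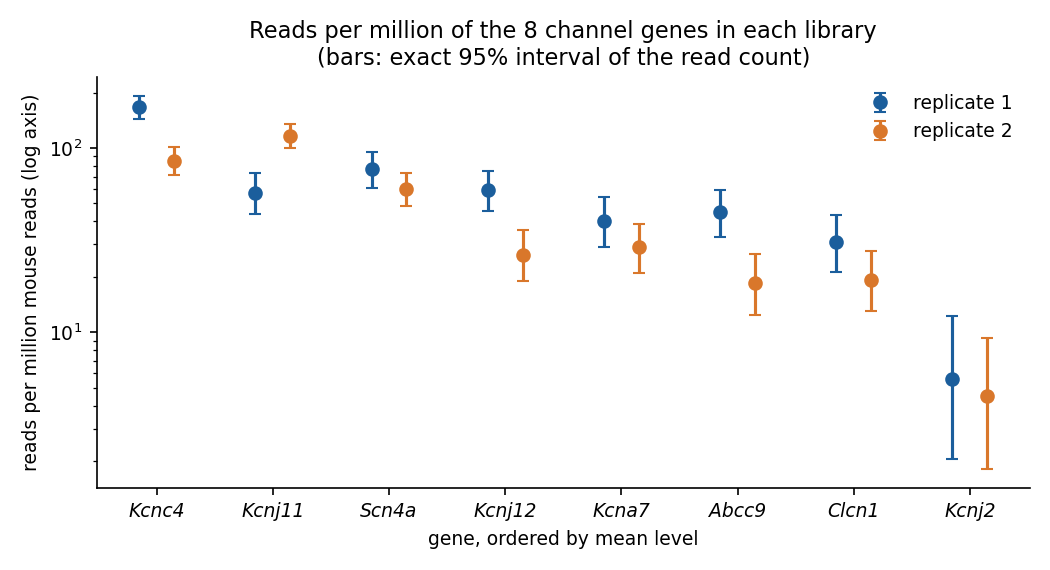
CPM (log axis) of the 8 channel genes in replicate 1 (blue) and replicate 2 (orange), with exact 95% intervals of the read counts. Replicate 1 is the upper point for every gene but Kcnj11, and the intervals of the libraries lie apart for Kcnc4, Kcnj11, Kcnj12 and Abcc9.

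Between the libraries, Fisher's exact test (two-sided, each gene's reads against the rest of its library, Benjamini-Hochberg adjusted over all 8892 annotated genes with 10 or more reads) called 4 of the 8 channel genes at an adjusted p under 0.05. Kcnj11 was higher in replicate 2, and Kcnc4, Kcnj12 and Abcc9 were lower. Over all genes tested, 26.0% were called, 11.1% as higher in replicate 2 and 14.9% as lower, so differences of this kind between these libraries were common. The test compares 2 libraries and not conditions, and the labels do not say which steps the replicates shared. The median log2 ratio was -0.58 over the 8 genes and -0.18 over all genes tested. With TMM scaling the second median became 0.00 and the calls over all genes turned from 983 higher and 1328 lower to 1274 higher and 843 lower, while the same 4 channel genes were called in the same directions. With the length trend removed, 2 of the 4 calls were left, on Kcnj11 and Kcnj12. With edgeR's exact test at a fixed dispersion of 0.04, which lets the libraries vary beyond counting error, 0 of the 8 were called and 2.25% of all genes were.

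Clcn1 (ENSMUSG00000029862.15, mm10, chromosome 6, 42286685 to 42315756, plus strand) encodes ClC-1, the chloride channel of skeletal muscle. It had 33 reads, or 30.8 CPM (21.2 to 43.3), in replicate 1 and 30 reads, or 19.3 CPM (13.0 to 27.5), in replicate 2. The intervals overlapped, and the log2 ratio of -0.68 did not pass the test (Fisher's exact test, adjusted p = 0.187). The annotated 23-exon transcript was the leading chain, with 21 of the 33 reads in replicate 1 and 13 of the 30 in replicate 2. A 7-exon chain that begins at exon 17 had 3 and 2 reads, and reads without a junction numbered 5 and 7. The gene's 3′ end overlaps Fam131b on the opposite strand, and strand use in counting remains not given in the sources used here.

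The alternative exon of Clcn1 best known in this tissue is exon 7a, which lies between exons 6 and 7 in mouse muscle and is joined in newborn muscle and in models of myotonic dystrophy. Its sequence is given because its use is the main splicing question for this gene. It lies at chr6:42293444-42293522 (mm10, plus strand) within an intron of that transcript, and GENCODE M21 holds it as an exon of transcripts that it classes as subject to nonsense-mediated decay. Exon 7a is in capitals, between the last 20 bases of exon 6 and the first 20 of exon 7, 5′ to 3′, from the GENCODE M21 transcripts.
Clcn1 exon 7a: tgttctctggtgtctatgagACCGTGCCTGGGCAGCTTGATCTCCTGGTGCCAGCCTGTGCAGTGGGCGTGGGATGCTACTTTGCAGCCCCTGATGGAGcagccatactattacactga
The exon has 79 bases, not a multiple of the codon length. Added to the 23-exon transcript, it left the first 258 of 994 codons as they were and brought a stop codon in exon 7, after 290 codons.

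Exon 7a was seen in a single read. It was joined by 0 of 24 spanning reads in replicate 1, a share of 0% (0 to 14.2), and by 1 of 20 in replicate 2, a share of 5% (0.127 to 24.9). The read that joined it also kept intron 2, used an acceptor 3 bases upstream at exon 7 and ended exon 15 at a donor 47 bases inside the annotated one. Replicate 1 held 1 read with the same retained intron and the same inner donor of exon 15, without exon 7a.

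The annotated internal exons of Clcn1 were otherwise almost always joined. Exon 12 was left out by 1 of 21 reads in replicate 2, in an 18-exon chain, and by 0 of 25 in replicate 1. No other annotated exon was left out by any spanning read of either library. A 24-exon chain with 1 read in replicate 2 added an unannotated exon of 82 bases at chr6:42288370-42288451. A donor of exon 9 that lies 4 bases downstream of the annotated one was used by 0 of 25 reads in replicate 1 and 2 of 21 (9.52%, 1.17 to 30.4) in replicate 2. Exons that no read skipped could still be left out at up to 14.2% where 24 reads spanned them.

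A list on the splicing of Clcn1 held the MBNL and CELF genes, whose proteins bind alternative exons, and Dmpk, which is not itself a splicing factor. Of its 6 genes, 5 had reads and were tested, 0 were called higher in replicate 2 and 2 lower (26.0% of all genes called). Mbnl1, whose protein holds exon 7a out, had 103 reads (96.3 CPM) in replicate 1 and 122 reads (78.3 CPM) in replicate 2, a log2 ratio of -0.30 that did not pass (Fisher's exact test, adjusted p = 0.294). Its relative Mbnl2 went from 270 to 103 CPM (log2 ratio -1.39, adjusted p = 3.31e-22, Fisher's exact test). Dmpk, the kinase gene whose expanded repeat causes myotonic dystrophy in people, went from 310 to 139 CPM (log2 ratio -1.15, adjusted p = 6.56e-19). Celf2, a further binding protein of alternative exons, had 51 and 50 reads.

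**Figure D2:**
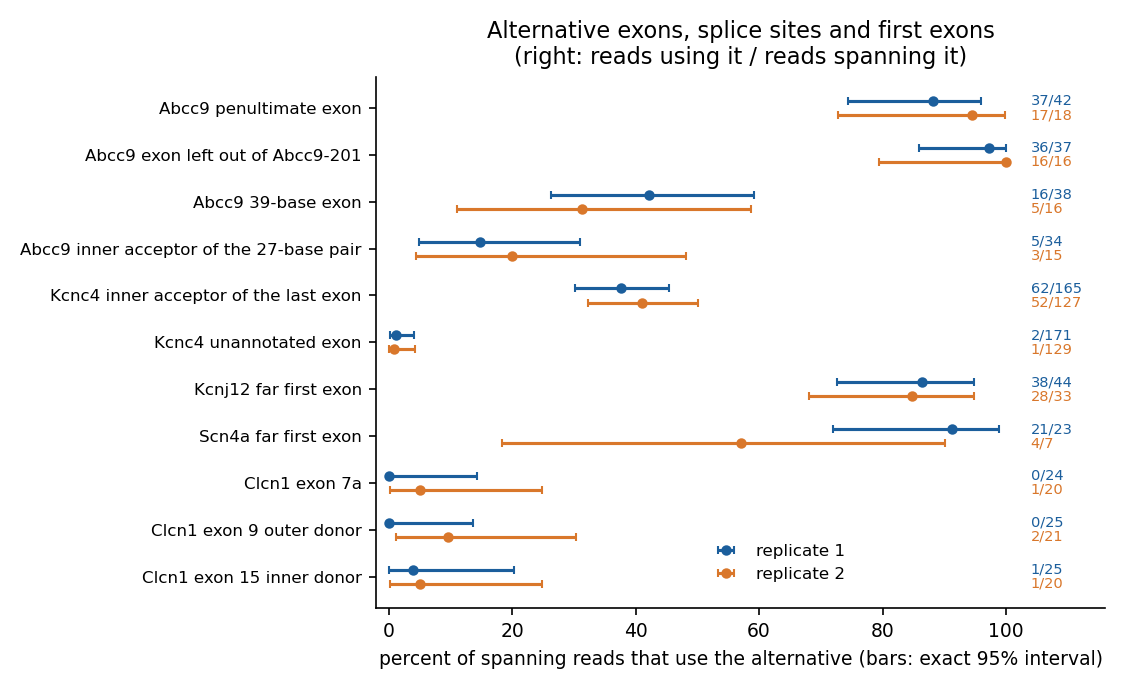
Share of spanning reads that use each alternative (percent, points, with exact 95% intervals as bars) in replicate 1 (blue) and replicate 2 (orange), with the read counts at the right. Kcnc4's inner acceptor lies near 40% in both libraries, and the Clcn1 alternatives lie at or under 9.52%.

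Scn4a (ENSMUSG00000001027.7, mm10, chromosome 11, 106318592 to 106353288, minus strand) encodes the pore-forming sodium channel subunit of skeletal muscle. It had 82 reads, or 76.7 CPM (61.0 to 95.1), in replicate 1 and 93 reads, or 59.7 CPM (48.2 to 73.1), in replicate 2. The log2 ratio of -0.36 did not pass (Fisher's exact test, adjusted p = 0.247), and it was 0.32 once the length trend was removed. The other sodium channel alpha subunit genes were at or near 0: of 9 listed, 7 had no read in either library, and Scn2a and Scn7a had 1 read each. Scn4b, an accessory beta subunit gene, had 38 and 56 reads, at 35.5 and 36.0 CPM.

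Many Scn4a reads lay past the coding sequence, and in replicate 2 most did. Reads without a junction numbered 37 of 82 (45.1%, 34.1 to 56.5) in replicate 1 and 77 of 93 (82.8%, 73.6 to 89.8) in replicate 2, and the models that hold all but 1 of them hold no coding bases and lie in the last exon and past its end. The files give outer ends per model and not per read. Models of Scn4a ran up to 1052 bases past the annotated 3′ end, and these held 74 of 82 reads in replicate 1 and 85 of 93 in replicate 2. The share without a junction differed between libraries (difference of 37.7 percentage points; Fisher's exact test, adjusted p = 5.86e-06 over 4149 genes with 20 or more reads in each library). In that test 14.2% of genes were called, 14.1% as higher in replicate 2 and 0.121% as lower. Kcna7 was the other of the 7 channel genes tested to pass, as given with its values below.

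Among Scn4a reads that do carry junctions, the difference between libraries passed the test, while that of the totals, in the same direction, did not. These numbered 45 (42.1 CPM) in replicate 1 and 16 (10.3 CPM) in replicate 2, a log2 ratio of -2.01 (Fisher's exact test, adjusted p = 3.59e-06, 28.9% of genes called). Reads that touch the first exon of the annotated chain numbered 23 and 7. The reads past the last junction were thus the larger part of replicate 2, and the shares of junction reads that reach the 5′ end were not tested.

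**Figure D3:**
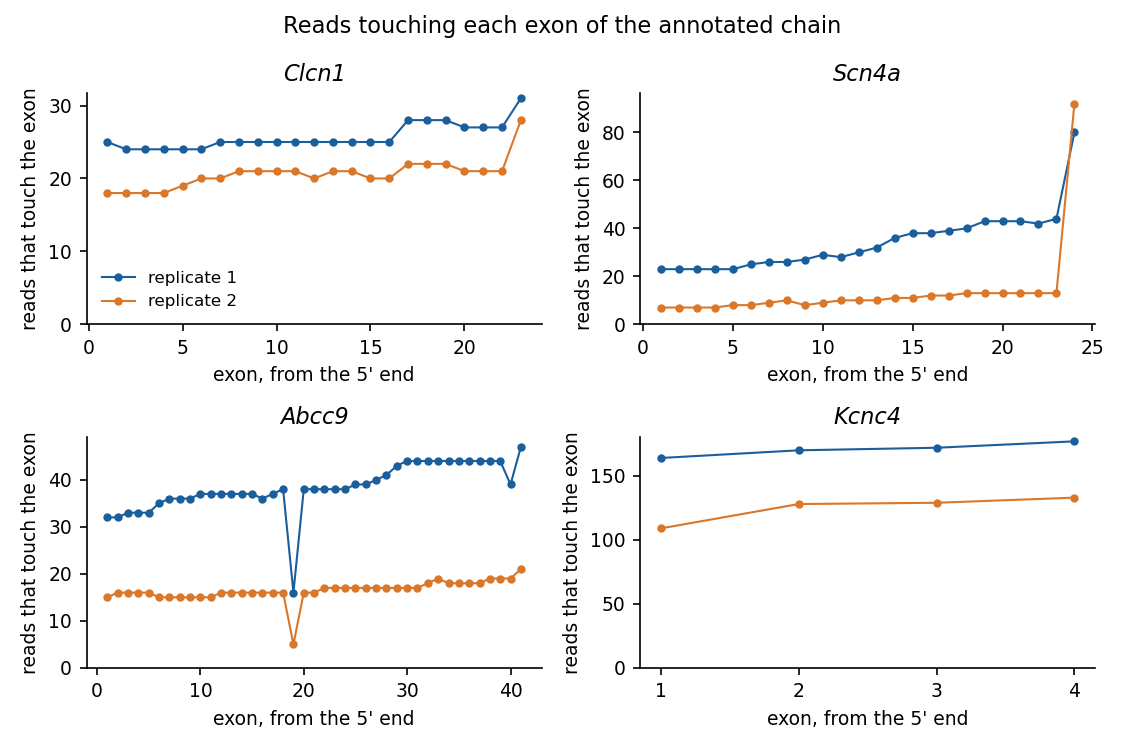
Reads that touch each exon of the annotated chain of Clcn1, Scn4a, Abcc9 and Kcnc4, numbered from the 5′ end, in replicate 1 (blue) and replicate 2 (orange). Scn4a shows a step at its last exon, 44 to 80 reads in replicate 1 and 13 to 92 in replicate 2, and the dip in Abcc9 is its 39-base alternative exon.

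The leading junction-bearing chain of Scn4a was not an annotated one. It had 25 exons, 1 more than the annotated transcript, and 16 reads in replicate 1 and 3 in replicate 2, while the annotated 24-exon one had 1 and 3. Its first exon lies 16086 bases upstream of the start codon, with its splice donor at the lower end of chr11:106365475-106365650 (mm10, minus strand). The outer end of that exon equals an exon end of Prr29, a gene on the other strand, so it was not taken as a measured transcription start. Of reads that reach the first annotated junction, 21 of 23 (91.3%, 72.0 to 98.9) in replicate 1 and 4 of 7 (57.1%, 18.4 to 90.1) in replicate 2 used the far exon, and the intervals overlapped. The annotated transcript begins at its start codon, with 0 bases of 5′ untranslated sequence. The second exon of the 25-exon chain, chr11:106349117-106349791, holds the whole RefSeq promoter window of the gene (GRCm38.p6, chr11:106349341-106349640), so the window was itself transcribed in these reads.

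Kcnj2 (ENSMUSG00000041695.2, mm10, chromosome 11, 111066164 to 111076821, plus strand) encodes an inward rectifier pore whose human counterpart is mutated in Andersen-Tawil syndrome, a periodic paralysis. It was the least read of the 8 genes, with 6 reads or 5.61 CPM (2.06 to 12.2) in replicate 1 and 7 reads or 4.49 CPM (1.81 to 9.26) in replicate 2. Reads without a junction made up 5 of the 6 and 6 of the 7, and the remaining read of each library was the annotated spliced transcript. A difference between libraries was not detectable at this depth (Fisher's exact test, adjusted p = 0.911).

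Kcnj12 (ENSMUSG00000042529.14, mm10, chromosome 11, 61022564 to 61071131, plus strand), the gene of a related inward rectifier that is also strong in heart, had 63 reads or 58.9 CPM (45.3 to 75.3) in replicate 1 and 41 reads or 26.3 CPM (18.9 to 35.7) in replicate 2. The intervals lay apart, with replicate 2 the lower (log2 ratio -1.16, adjusted p = 0.000493, Fisher's exact test). Its call held with the length trend removed (log2 ratio -0.93, exact binomial test, adjusted p = 0.0119).

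Kcnj12 has alternative first exons, and its transcripts began mostly at the far one. The annotated 2-exon transcript that starts at chr11:61022564-61022850 had 38 reads in replicate 1 and 28 in replicate 2. From the near first exon, an unannotated 2-exon chain had 6 and 5, and the annotated 3-exon transcript had 4 and 0. Of reads that join either first exon to the common next exon, 38 of 44 (86.4%, 72.6 to 94.8) and 28 of 33 (84.8%, 68.1 to 94.9) used the far exon, a mean of 85.6% ± 1.07. With any next exon allowed, which takes in the 3-exon transcript, the far share was 38 of 49 (77.6%, 63.4 to 88.2) and 29 of 35 (82.9%, 66.4 to 93.4). The 2 donors lie 43127 bases apart, and the RefSeq promoter window of this gene (chr11:61065554-61065853) lies at the near exon. Reads without a junction numbered 13 in replicate 1 and 6 in replicate 2.

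Of the wider family of inward rectifier and sulfonylurea receptor genes, 13 were listed beside the members, 9 had no read in either library, and 1 could be tested and did not pass. That was Kcnj8, the pore of vascular ATP-sensitive channels, with 13 reads (12.2 CPM) in replicate 1 and 35 (22.5 CPM) in replicate 2 (log2 ratio 0.85, Fisher's exact test, adjusted p = 0.158). Abcc8, the receptor of the pancreatic form, had 5 and 1 reads.

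Kcna7 (ENSMUSG00000038201.10, mm10, chromosome 7, 45405653 to 45409763, plus strand) encodes a voltage-gated potassium channel of the Shaker group found in muscle and heart. It had 43 reads or 40.2 CPM (29.1 to 54.1) in replicate 1 and 45 reads or 28.9 CPM (21.1 to 38.7) in replicate 2. The intervals overlapped, and the log2 ratio of -0.48 did not pass (Fisher's exact test, adjusted p = 0.284). The annotated 2-exon transcript held 16 of the 43 reads and 5 of the 45, and reads without a junction held the rest.

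Most reads assigned to Kcna7 were in models that ran past its annotated 3′ end, and none of these models had a junction. The annotation gives the coding transcript 3 bases after its stop codon. Models without a junction ran up to 1884 bases past that end and held 27 reads in replicate 1 and 39 in replicate 2. The model of the 39 reads, chr7:45409763-45411647, begins at the last annotated base of the gene. No junction ties the reads of these models to Kcna7, and its level and the share below include them. The share of reads without a junction was 62.8% (46.7 to 77.0) in replicate 1 and 88.9% (75.9 to 96.3) in replicate 2, a difference of 26.1 percentage points (Fisher's exact test, adjusted p = 0.0411). Reads with a junction numbered 16 and 5 (log2 ratio -2.13, adjusted p = 0.00705, Fisher's exact test). The call on the share was lost when all genes with 10 or more reads per library entered the test.

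Kcnc4 (ENSMUSG00000027895.9, mm10, chromosome 3, 107438303 to 107459552, minus strand) encodes a fast voltage-gated potassium channel of the Shaw group. It was the most read of the 8 in replicate 1, with 178 reads or 166 CPM (143 to 193), and had 133 reads or 85.4 CPM (71.5 to 101.2) in replicate 2. Replicate 2 was the lower (log2 ratio -0.96, adjusted p = 1.01e-07, Fisher's exact test). With the length trend removed, the ratio was -0.42 and the call was lost (exact binomial test, adjusted p = 0.0733).

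Kcnc4 had an unannotated splice form as its second transcript, with a changed end of the coding sequence. The annotated 4-exon transcript took 99 and 59 reads, and a chain of the same exons with another acceptor in the last exon took 57 and 46. The sequences are shown because this choice changes the carboxyl end of the channel: each begins with the last 20 bases of exon 3 in lower case, followed in capitals by the last exon as each acceptor opens it. For the outer acceptor (chr3:107439421-107439476, minus strand) the capitals run through the annotated stop codon, and for the inner acceptor (chr3:107439385-107439414) they give the first 30 bases.
Kcnc4 outer acceptor: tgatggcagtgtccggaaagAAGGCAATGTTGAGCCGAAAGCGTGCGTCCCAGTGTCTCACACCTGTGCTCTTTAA
Kcnc4 inner acceptor: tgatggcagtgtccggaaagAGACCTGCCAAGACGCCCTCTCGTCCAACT
The inner acceptor lies 62 bases inside the annotated one and 6 bases past the annotated stop codon, which it removes. Read on in frame, both forms shared 611 codons. The annotated form then has 17 more, to 628, and the inner form 19 others, to 630, before a stop codon that lies 1050 bases from the end of the transcript.

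The inner acceptor was used at a like rate in both libraries. It was taken by 62 of 165 reads (37.6%, 30.2 to 45.4) in replicate 1 and by 52 of 127 (40.9%, 32.3 to 50.0) in replicate 2, a mean of 39.3% ± 2.38. Counted as isoforms among complete chains, the shares did not pass (adjusted p = 0.853 by Fisher's exact test over 1714 genes). An exon of 79 bases outside the annotation (chr3:107443399-107443477) was joined in 2 of 171 and 1 of 129 reads. Chains of 3 exons that do not reach the first had 2 and 12 reads with the outer acceptor and 4 and 4 with the inner. Reads without a junction numbered 5 and 4, or 2.81% and 3.01%, the smallest share among the 8 genes; the 4 of replicate 2 are in a model that the files give as 1 base long.

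Of the other voltage-gated potassium channel alpha subunit genes, 17 of 36 listed had reads, 5 could be tested and 0 passed in either direction (2 in either direction over all 17 testable genes of the 8 channel lists). Among them Kcnc1, of the same Shaw group as Kcnc4, had 28 and 24 reads and Kcng4 had 10 and 14. The accessory subunit gene Kcnab1 had 8 and 4 reads. Of the calcium-activated channels, Kcnma1 had 20 and 19 reads and the small-conductance Kcnn1 had 18 and 15. No two-pore channel gene reached 10 reads.

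Of the CLC family beside Clcn1, 8 of 10 listed genes had reads, 5 were tested, and 1 was called. This was Ostm1, the beta subunit of the lysosomal exchanger, at 46.7 CPM in replicate 1 and 20.5 CPM in replicate 2 (log2 ratio -1.18, adjusted p = 0.00206, Fisher's exact test). Clcn4, an endosomal exchanger gene, had 61 and 64 reads and Clcn3 had 23 and 19. Over the 8 channel lists, which hold 110 genes beside the members, 51 had reads, 17 were tested, 0 were called higher and 2 lower, and the median log2 ratio of those tested was -0.54. Over all genes the called share was 26.0%. The genes of membrane scaffolds, 6 of 7 tested, had 0 calls higher and 2 lower, among them Dlg1 (21.5 and 8.99 CPM; log2 ratio -1.24, adjusted p = 0.0439, Fisher's exact test).

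Kcnj11 (ENSMUSG00000096146.2, mm10, chromosome 7, 46093953 to 46100764, minus strand) encodes the pore of the ATP-sensitive channel of muscle, heart and the insulin-secreting cell. It had 61 reads or 57.0 CPM (43.6 to 73.2) in replicate 1 and 181 reads or 116.2 CPM (99.9 to 134) in replicate 2. It was the only one of the 8 above its replicate 1 level in replicate 2, by a log2 ratio of 1.02 (adjusted p = 7.25e-06, Fisher's exact test). Its call held under TMM scaling (log2 ratio 1.20, exact binomial test, adjusted p = 4.35e-08) and with the length trend removed (1.48, adjusted p = 6.61e-12). Among the 1502 genes of its length class, 3000 to 4000 bases, 3.33% were called higher in replicate 2, and the class median was -0.54.

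Most reads of Kcnj11 in either library came from its single-exon transcript. The transcript annotated with 1 exon held 56 reads in replicate 1 and 169 in replicate 2, a 2-exon one held 4 and 4, and a 3-exon one annotated as noncoding held 0 and 5. Reads with a junction were 5 (4.67 CPM) and 12 (7.70 CPM), with a log2 ratio of 0.64 that did not pass (Fisher's exact test, adjusted p = 0.645). A single-exon read carries no junction to tell it from unspliced or genomic sequence, and the share of such reads over all annotated genes also stood higher in replicate 2 (10.3% against 4.93%), as did the slow-fibre markers. Their part in the Kcnj11 value was not tested. The shares of its 3 chains did not pass the isoform test (chi-square statistic by Monte Carlo permutation, adjusted p = 0.631).

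Abcc9 (ENSMUSG00000030249.15, mm10, chromosome 6, 142587862 to 142702315, minus strand) encodes the sulfonylurea receptor SUR2, the regulatory partner of the inward rectifier pore. It had 48 reads or 44.9 CPM (33.1 to 59.5) in replicate 1 and 29 reads or 18.6 CPM (12.5 to 26.7) in replicate 2, lower in replicate 2 (log2 ratio -1.26, adjusted p = 0.00136, Fisher's exact test). With the length trend removed, the ratio was -0.58 and did not pass (exact binomial test, adjusted p = 0.312). Vascular smooth muscle and pericytes also express this gene. Without Abcc9 and Kcnj8, the 9 markers of those cells summed to 353 CPM in replicate 1 and 196 CPM in replicate 2. Of the 8 tested, 5 were lower in replicate 2 and 0 higher, against 14.9% lower and 11.1% higher over all genes. The other 3 did not pass, among them Pdgfrb (12.2 and 12.8 CPM) and Cspg4 (5.61 and 8.35 CPM). Kcnj8, left out of that sum, had 12.2 and 22.5 CPM and did not pass. The part of these cells in the Abcc9 value was not tested. The noncoding gene 5330439B14Rik overlaps Abcc9 on the opposite strand.

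SUR2 is made in forms that differ in their last stretch, called SUR2A and SUR2B, through the joining or leaving out of the last exon but 1. The sequences of both ends are shown because the choice sets the receptor form. Each begins with the last 20 bases of the last shared exon in lower case and goes on in capitals to the stop codon, from chr6:142594005-142594142 with the exon and chr6:142590366-142590503 without it (mm10, minus strand).
Abcc9 end with the penultimate exon: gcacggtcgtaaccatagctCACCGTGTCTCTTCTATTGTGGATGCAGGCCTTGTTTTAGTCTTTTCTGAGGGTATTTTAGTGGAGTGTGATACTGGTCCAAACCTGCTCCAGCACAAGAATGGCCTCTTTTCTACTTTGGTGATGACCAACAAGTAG
Abcc9 end without the penultimate exon: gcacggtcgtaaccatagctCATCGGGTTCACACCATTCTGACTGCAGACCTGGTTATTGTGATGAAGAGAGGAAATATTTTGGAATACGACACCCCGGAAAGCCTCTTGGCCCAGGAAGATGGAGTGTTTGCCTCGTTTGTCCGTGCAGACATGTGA
Translated, each end differs from the other over 42 residues, of which 14 are identical. The end made without the exon shares 31 of its 42 residues (73.8%) with the end of Abcc8, and the end made with it shares 14 of 42 (33.3%). SUR2B is known as the form whose end resembles that of the pancreatic receptor, so the end with the exon is that of SUR2A.

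The SUR2A end prevailed in both libraries. The exon, of 176 bases, was joined by 37 of 42 spanning reads (88.1%, 74.4 to 96.0) in replicate 1 and by 17 of 18 (94.4%, 72.7 to 99.9) in replicate 2, a mean of 91.3% ± 4.49. The intervals overlapped. The leading annotated chain, of 40 exons, has this end and held 12 and 4 reads. An annotated 40-exon chain with the other end held 4 reads in replicate 1 and 1 in replicate 2.

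Other alternatives of Abcc9 lay within the coding sequence and kept the reading frame by length. An exon of 39 bases at chr6:142648027-142648065 was joined by 16 of 38 reads (42.1%, 26.3 to 59.2) and 5 of 16 (31.2%, 11.02 to 58.7). An exon of 105 bases, which 1 annotated transcript leaves out, was joined by 36 of 37 and 16 of 16. A pair of acceptors 27 bases apart was used unequally, with the inner one taken by 5 of 34 reads (14.7%, 4.95 to 31.1) in replicate 1 and 3 of 15 (20.0%, 4.33 to 48.1) in replicate 2. The sequence around that pair is shown for the stretch that the inner acceptor leaves out, in capitals (chr6:142687415-142687441, minus strand).
Abcc9 27-base pair: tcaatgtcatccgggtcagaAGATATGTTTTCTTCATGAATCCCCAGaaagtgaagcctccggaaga
The annotated 41-exon chain held 4 and 3 reads, and a 40-exon chain outside the annotation held 2 and 3. Reads without a junction numbered 4 of 48 and 7 of 29.

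By class of model, complete reads were a smaller part of the summed reads of the 8 genes than of the reads of all annotated genes, a difference that was not tested. Annotated chains and new ones, which count as complete by class, held 72.2% (68.1 to 76.0) of their reads in replicate 1. In replicate 2 they held 66.7% (62.7 to 70.6). The values over all annotated genes were 89.3% and 82.2%. Some new chains span only part of the transcript. Those of Scn4a included chains of 8 and 14 exons, where the annotated transcript has 24. The 8 genes differed widely among themselves. Kcnj11, at 100% and 98.9%, and Kcnc4, at 91.6% and 84.2%, stood above the values over all genes in both libraries. Scn4a stood at 31.7% and 8.60%. Reads of Kcnj11 without a junction count as complete because the annotation holds a 1-exon transcript, while those of Scn4a are classed Genomic. Reads without a junction made up 29.6% (25.7 to 33.7) and 56.5% (52.3 to 60.7) of the reads of the 8 genes, of which the single-exon Kcnj11 gave 56 of 152 and 169 of 316. In all, 111 distinct chains were seen, counting reads without a junction as 1 chain per gene, of which 33 were in both libraries and 24 had 5 or more reads. For 4 of the 33 the deposited class differed between libraries. In Kcnj12 and Kcnc4 these were the pooled reads without a junction, whose models were not the same in both libraries. In Abcc9 and Scn4a the chain of introns was the same. The 25-exon Scn4a chain is NNC (holding a new splice site) in replicate 1 and NIC (a new joining of known sites) in replicate 2.

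**Figure D4:**
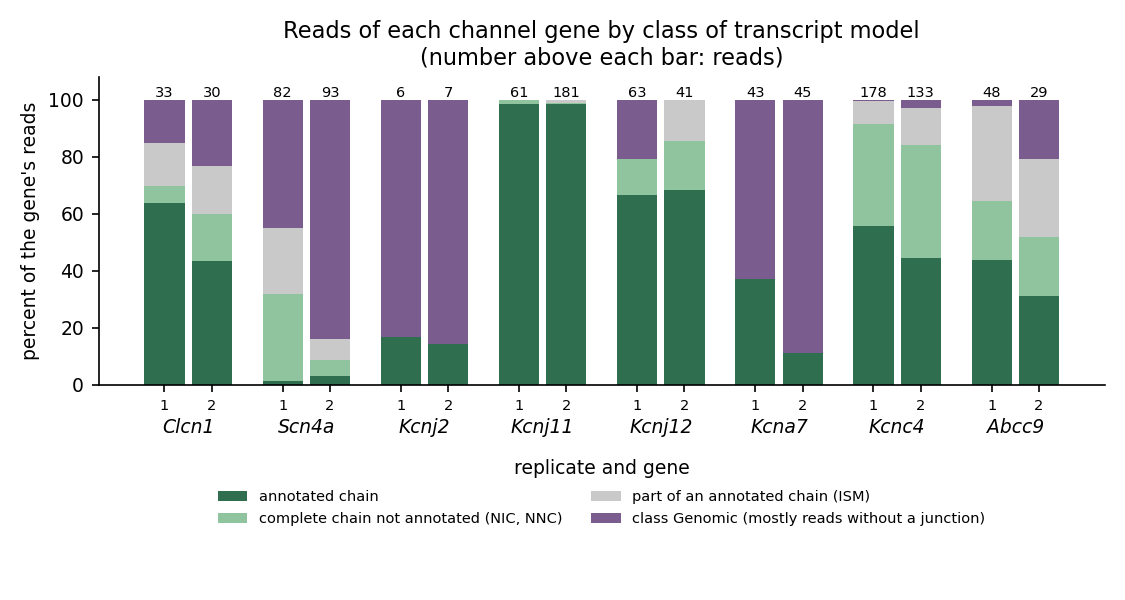
Percent of each gene's reads by class of transcript model, replicates 1 and 2 side by side, with the number of reads above each bar. Genomic reads fill most of the bars of Scn4a in replicate 2, of Kcnj2 and of Kcna7, and annotated chains fill those of Kcnj11.

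Of the 8 genes, 3 had enough complete chains for the isoform test, Kcnc4, Kcnj12 and Kcnj11, and 0 passed at an adjusted p under 0.05, with 0 at an unadjusted p under 0.05. Over all 1714 genes tested, 2.63% were called. The other 5 had too few complete reads, and the splice shares of Clcn1, Scn4a and Abcc9 stand with their intervals alone. The interval of 17 of 18 reads at the last choice of Abcc9 reached down to 72.7%.

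**Figure D5:**
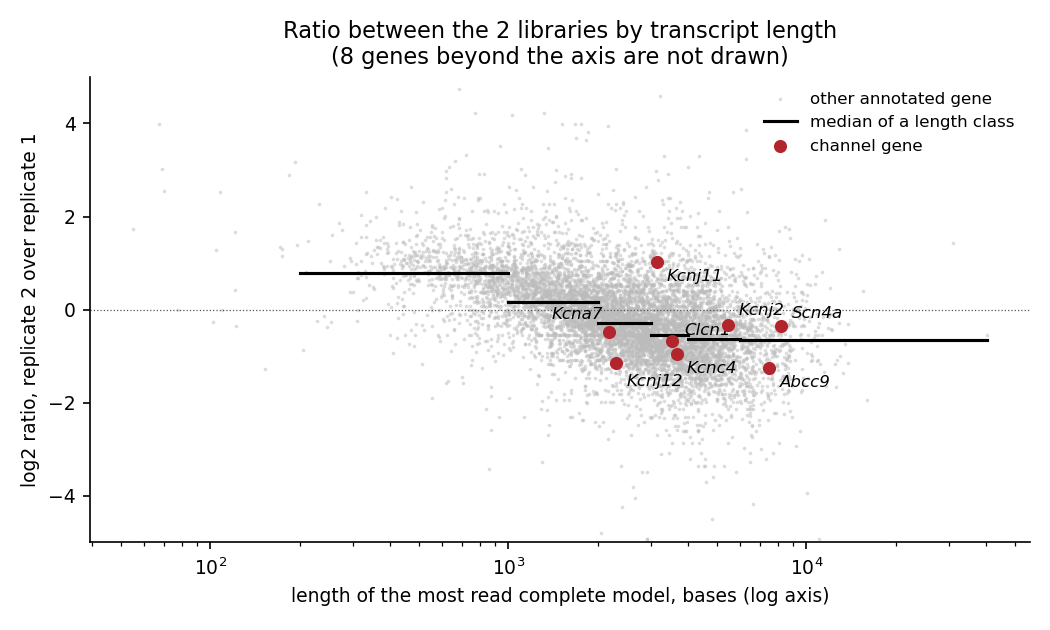
Log2 ratio of replicate 2 over replicate 1 against the length of the most read complete model (bases, log axis) for annotated genes with 10 or more reads (grey), the 8 channel genes (red) and the median of each length class (black lines). Kcnj11, at 1.02, lies above its class median of -0.54. Scn4a and Kcnj2 also lie above their class medians, and Abcc9, Kcnj12, Kcnc4, Clcn1 and Kcna7 lie below theirs.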

How the data were processed

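The authors deposited raw read counts for each transcript model, whole numbers in every row. Per the labels the build is mm10. Notes deposited with the files name GENCODE M21 and filtered alignments, and the gene models name TALON. Platform, aligner, filter settings and strand setting remain not given in the sources used here. Model lengths and exon coordinates are as deposited (other values). The members and lists were chosen with earlier results of these data known.

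Counts were summed per gene over models, and CPM used all mouse reads, ERCC spike-ins left out. Chains were matched by introns. Log2 ratios add 0.5 reads to each count. Tests ran over all annotated genes with 10 or more reads, and, for isoforms, over genes with 20 or more complete-chain reads per library and chains of 5 or more (Fisher's exact test for 2 chains; for more, chi-square over 2000 Monte Carlo permutations, repeated with 100000 at a p of or under 0.02). Other scales and the removed length trend used an exact binomial test. The tests of reads without a junction were added after seeing the data. Named were all 8 members, the 4 most read and every called member of other lists, and chains of 5 or more reads. Some genes of the other lists are not reported here by name. Fam131b, Prr29, 5330439B14Rik and chains of fewer reads were named after their values were seen. Reading frames were translated from GENCODE M21 transcripts with Biopython 1.88, and promoter windows came from RefSeq, which matched 7 of the 8. The tests were tested on simulated data. Python 3.11.15, scipy 1.17.1, statsmodels 0.14.6, R 4.3.3, edgeR 4.0.16 and DESeq2 1.42.0 were used.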

Additional observations from a re-analysis of the deposited data

How the results depend on the processing

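With 2 libraries of 1 group, values rest on few reads and on no contrast. No paired analysis was possible because the labels give a single group. Of the 8 channel genes, 4 were called in the report. The same 4 genes were called with TMM or DESeq2 size factors, with no minimum and with a minimum of 20 reads. Complete chains alone gave 6 calls and annotated transcripts alone 5, and reads with introns alone gave 5, without Kcnj11. With the length trend removed (lowess fraction 0.4, exact binomial test), 2 remained, Kcnj11 and Kcnj12, and the ratios of Scn4a (0.32) and Kcnj2 (0.32) turned positive; neither passed in either setting. With edgeR's exact test at a fixed dispersion of 0.04, 0 of the 8 were called, with log2 ratios as before (Kcnj11 1.03, adjusted p = 0.253), and 2.25% of all genes. Calls over all genes, 983 higher and 1328 lower in the report, numbered 660 and 484 with the length trend removed and 105 and 95 with edgeR. Their summed level was 420 CPM, 293 CPM over complete chains and 217 CPM over annotated transcripts, and 359 to 480 CPM with either library left out. Over annotated transcripts alone the mean level of Scn4a was 1.43 CPM in place of 68.2. The share of complete chains, 69.5%, was 51.9% when only annotated ones counted, and 66.7% to 72.2% with either library left out. Exon 7a of Clcn1 was joined in 0% to 5% and the last exon but 1 of Abcc9 in 88.1% to 94.4%. With any next exon allowed, a choice made after seeing the data, the mean share of the far first exon of Kcnj12 was 80.2% in place of 85.6%. The isoform test called 0 members under each of its alternatives. The share of reads without a junction was called for 2 members, and for 1, Scn4a, with a minimum of 10 reads per library.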
